A study of Mus musculus with 26 samples.

Results

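A5 and H11 are 2 mouse cell lines from squamous carcinoma of the skin that carry the label of spindle morphology, and they were set against 3 other lines with the same label, D3, D3DP and MSN2. These 5 lines are part of a collection of 26 lines from mouse skin. Transcripts were measured on Affymetrix M430 2.0 arrays, with 1 array per line, and 7 of the 26 have the spindle flag set. The remaining spindle lines, CarC and CarB, are used only for comparison, as are 12 carcinoma lines with the spindle flag at 0, 2 keratinocyte lines, 1 papilloma line and 4 lines without a clear group. All 5 lines are flagged as neither keratinocyte nor papilloma, received no treatment, were grown with serum and gave RNA in log phase. The sources used here do not give strain, age, tumour-inducing agent or clonal origin of these lines. All values below are log2 RMA values (background-corrected, quantile-normalised and summarised per probe set), and a difference is the mean of A5 and H11 minus the mean of D3, D3DP and MSN2, in log2 units.

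Spindle carcinoma is the least differentiated form of squamous skin carcinoma: the cells lose E-cadherin junctions and keratins, become elongated and take on a mesenchymal programme driven by factors such as Snail, Slug, Zeb and Twist. Lines with this shape can still differ in the tumour they came from, in their chromosomes and in the positional and signalling genes they express. Cultured tumour lines often carry gains or losses of chromosome segments, and some lines of one name family are derived from a single tumour.

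The lines were chosen by their titles and by the likeness of their whole arrays, so every gene had a part in the choice and no test was made of any difference between the sides. The difference between A5 and H11 had an SD of 0.34 over 11470 genes, which was the smallest among all 325 pairs of the 26 lines. For D3DP and MSN2 the SD was 0.46, and it was 0.60 for D3 and MSN2 and 0.64 for D3 and D3DP. The 6 pairs across the sides had SDs of 0.79 to 0.87. In genes differing by 1 log2 unit or more, A5 and H11 had 180, D3DP and MSN2 had 438, and the pairs across the sides had 1212 to 1582. The lines of a side are therefore not counted as independent samples, and the description below rests on genes in which every line of one side lay beyond every line of the other.

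A gene was called separated where the lowest line of one side lay 1 log2 unit or more above the highest line of the other. Of 11470 genes above the median of their own array in 2 or more of the 5 lines, 474 were separated (4.13%). Of these, 215 were higher in A5 and H11 (1.87% of the genes) and 259 were lower (2.26%). The median difference over all 11470 genes was -0.02. The means differed by 4 log2 units or more for 17 of the higher and 37 of the lower genes. Around the threshold, Eme2, a subunit of a DNA repair nuclease, was just inside with a gap of 1.00, while Ngef, at 0.99, stayed just outside. Array medians were 5.04 to 5.09 on the 5 arrays, and a level below them cannot be told from background, so differences that reach down to it are compressed. In 106 of the 259 lower genes both A5 and H11 were under their medians, and in 49 of the 215 higher genes all of D3, D3DP and MSN2 were. Each gene was read from 1 probe set. For 205 separated genes a further probe set passed the filter, and in 196 of them all further probe sets had the same sign. All of these were themselves separated for 106 genes, and none for 72.

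The gene with the largest difference was Cd34, which encodes a sialomucin found on blood progenitors, endothelium and hair follicle bulge stem cells. It had 12.83 in A5 and 12.66 in H11, against 3.67 in D3, 3.39 in D3DP and 3.44 in MSN2, a difference of 9.24. Cd34 was thus near the top of the array scale on one side and at background on the other. CarC and CarB, with 10.75 and 12.36, also had it, whereas MSC11B, a non-spindle carcinoma line, had 4.38. Ces1g, a carboxylesterase with similar gene copies that its probe set may also read, followed with 11.50 and 11.63 in A5 and H11, against 3.68, 3.55 and 3.38 in D3, D3DP and MSN2. Aqp5, a water channel of secretory epithelia, had 13.27 and 13.09 in A5 and H11, against 5.95, 7.73 and 8.36 in D3, D3DP and MSN2. A5 and H11 were above every other line of the collection for Cd34, Ces1g and Aqp5, although the carcinoma line E4 came close for Aqp5, at 12.98. The transcription factor Sox2, a pluripotency and neural progenitor factor, had 9.58 and 9.61 in A5 and H11, against 3.01, 2.84 and 5.78 in D3, D3DP and MSN2. Its level was low in CarC as well, at 2.92, and intermediate in CarB, at 6.80.

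Among the 15 genes with the largest positive differences were also Aspa, which splits N-acetylaspartate (5.59), Hspb8, a small heat shock protein (5.51), and Gpr149, an orphan receptor (5.16). Gnai1, an inhibitory G protein subunit (5.15), Cp, the copper-carrying ferroxidase ceruloplasmin, and Fgf13, an intracellular member of the fibroblast growth factor family (4.34), belonged to them too. The line values of Gnai1 were 9.43 and 9.10 in A5 and H11, against 3.52, 3.48 and 5.34 in D3, D3DP and MSN2. In CarC and CarB Gnai1 was at background, with 3.51 and 3.41, so this gene was not shared by the remaining spindle lines. Cp had 11.74 and 10.57 in A5 and H11, against 5.52, 6.90 and 6.06 in D3, D3DP and MSN2, and all of its 7 further probe sets were separated the same way.

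The largest negative difference was that of Prdx4, an X-linked peroxiredoxin of the endoplasmic reticulum. Prdx4 had 3.63 in A5 and 3.63 in H11, against 10.95 in D3, 11.74 in D3DP and 11.67 in MSN2, a difference of -7.82. It was thus at background in both A5 and H11, and it was high in CarC and CarB, at 11.18 and 11.14. Aldh1a1, a retinaldehyde dehydrogenase used as a marker of stem-like tumour cells, had 3.99 and 3.54 in A5 and H11, against 9.51, 11.81 and 11.57 in D3, D3DP and MSN2. Here CarC and CarB were at background too, with 3.82 and 3.47. Ptn, the heparin-binding growth factor pleiotrophin, had 3.42 and 3.66 in A5 and H11, against 8.34, 10.95 and 9.88 in D3, D3DP and MSN2. Of its 2 further probe sets, 1 was separated and the other differed by only -0.11. Lpl, the lipoprotein lipase that frees fatty acids from triglyceride, had 4.36 and 4.09 in A5 and H11, against 9.30, 9.85 and 10.97 in D3, D3DP and MSN2.

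**Figure D1:**
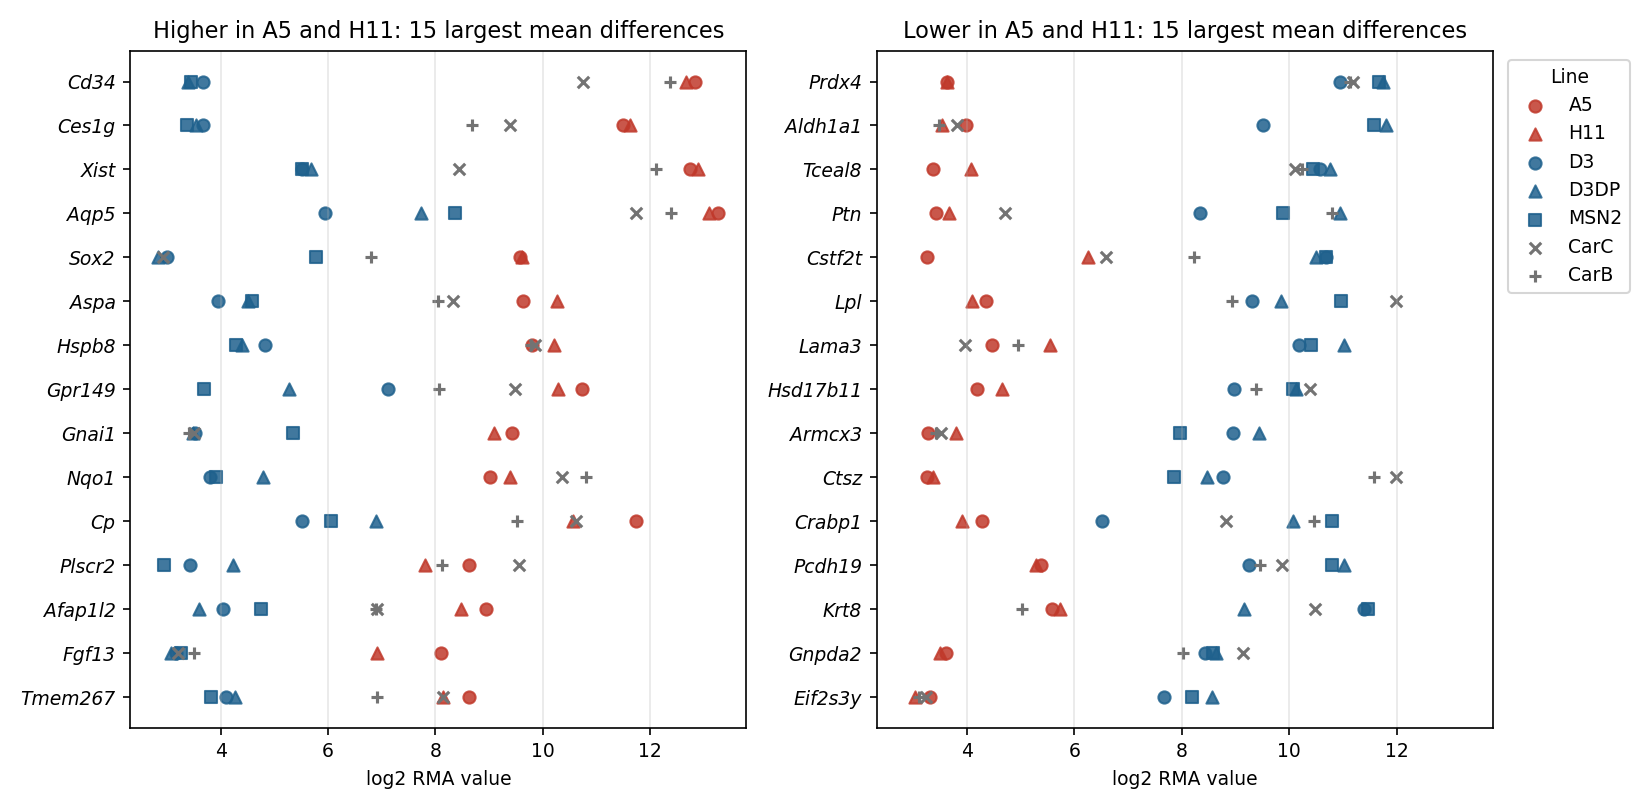
Log2 RMA values of the genes with the largest positive and negative differences, with 1 point per line for A5 and H11, for D3, D3DP and MSN2, and for CarC and CarB. Cd34 lies at 12.83 and 12.66 in A5 and H11 and at 3.67 or below in D3, D3DP and MSN2, and Prdx4 lies at 3.63 in both A5 and H11 and at 10.95 or above in D3, D3DP and MSN2.

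Further genes with low levels in A5 and H11 came from several cell functions. Ctsz, a lysosomal cysteine protease, had 3.25 and 3.36 in A5 and H11, against 8.76, 8.46 and 7.85 in D3, D3DP and MSN2. Gnpda2, a glucosamine-6-phosphate deaminase, had 3.60 and 3.49 in A5 and H11, against 8.43, 8.64 and 8.58 in D3, D3DP and MSN2. For Gnpda2 the lowest of the other 21 lines, E4, had 6.34. Lama3, a chain of the basement membrane protein laminin-332, differed by -5.53, and Hsd17b11, a steroid dehydrogenase, by -5.31. Cstf2t, a retrogene copy of a polyadenylation factor, was the gene of this group in which A5 and H11 themselves lay far apart, at 3.25 and 6.25, against 10.69, 10.50 and 10.68 in D3, D3DP and MSN2.

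The sides had opposite patterns of sex-linked transcripts. Xist, the RNA that coats and silences an X chromosome in female cells, had 12.74 in A5 and 12.89 in H11, against 5.52 in D3, 5.68 in D3DP and 5.51 in MSN2. Its 2 further probe sets were also separated, with differences of 4.36 and 7.83. Eif2s3y, a Y-linked translation initiation factor subunit, had 3.31 and 3.03 in A5 and H11, against 7.66, 8.56 and 8.19 in D3, D3DP and MSN2. Kdm5d, a Y-linked histone demethylase, had 3.14 and 3.16 in A5 and H11, against 5.34, 7.05 and 6.10 in D3, D3DP and MSN2. Uty missed the threshold with a gap of -0.94. A5 and H11 therefore had Xist RNA and background levels of these Y genes, and D3, D3DP and MSN2 had the reverse. CarC and CarB had Xist, at 8.44 and 12.11, with Eif2s3y at background. The carcinoma line MSC11B had both, with Xist at 11.16 and Eif2s3y at 9.59.

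The longest run of neighbouring separated genes was on chromosome 5. In the gene order of RefSeq, 11 tested genes in a row, Cdk6, Fam133b, 1700109H08Rik, Rbm48, Gatad1, Ankib1, Krit1, Mterf1a, Akap9, Cyp51 and Fzd1, were all lower in A5 and H11, with a median difference of -3.84. No measured gene lay before Cdk6 on the chromosome, and the next gene after the run, Cdk14, differed by -0.35. Within the run, 12 genes were measured, and Tmbim7, which was at background in all 5 lines, did not pass the filter. The promoters of 3 of these genes are shown to place the block, together with those of Prdx4 and Cd34, the genes with the largest negative and positive differences. They are from RefSeq (GRCm38.p6), from 250 bases before to 50 bases after the gene's start, 5′ to 3′ on the gene's strand, and capitals mark CG dinucleotides.
Cdk6, chr5:3343643-3343942, plus strand: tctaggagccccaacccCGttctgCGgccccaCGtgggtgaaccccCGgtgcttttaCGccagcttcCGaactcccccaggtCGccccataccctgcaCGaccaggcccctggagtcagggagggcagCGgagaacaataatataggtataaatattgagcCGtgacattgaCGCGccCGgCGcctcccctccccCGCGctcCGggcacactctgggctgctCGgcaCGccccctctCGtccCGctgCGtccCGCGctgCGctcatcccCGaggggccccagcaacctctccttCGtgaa
Ankib1, chr5:3803075-3803374, minus strand: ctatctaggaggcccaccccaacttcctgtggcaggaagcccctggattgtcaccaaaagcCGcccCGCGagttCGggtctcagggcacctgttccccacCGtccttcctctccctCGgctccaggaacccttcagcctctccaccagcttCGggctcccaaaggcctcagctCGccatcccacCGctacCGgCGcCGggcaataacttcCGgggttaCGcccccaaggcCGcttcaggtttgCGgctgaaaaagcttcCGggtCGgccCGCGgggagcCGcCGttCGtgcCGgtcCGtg
Krit1, chr5:3802931-3803230, plus strand: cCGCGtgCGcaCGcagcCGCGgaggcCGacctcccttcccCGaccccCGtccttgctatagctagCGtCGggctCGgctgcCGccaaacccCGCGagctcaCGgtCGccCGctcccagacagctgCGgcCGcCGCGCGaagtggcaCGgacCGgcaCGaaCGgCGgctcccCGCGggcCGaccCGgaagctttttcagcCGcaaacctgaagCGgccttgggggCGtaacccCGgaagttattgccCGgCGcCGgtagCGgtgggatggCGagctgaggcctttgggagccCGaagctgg
Prdx4, chrX:155338411-155338710, minus strand: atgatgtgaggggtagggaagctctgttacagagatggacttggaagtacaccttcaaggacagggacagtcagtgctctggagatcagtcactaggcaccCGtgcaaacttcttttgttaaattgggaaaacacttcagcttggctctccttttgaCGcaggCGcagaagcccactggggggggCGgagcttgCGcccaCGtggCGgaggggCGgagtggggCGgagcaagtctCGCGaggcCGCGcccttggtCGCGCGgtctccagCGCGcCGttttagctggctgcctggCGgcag
Cd34, chr1:194938571-194938870, plus strand: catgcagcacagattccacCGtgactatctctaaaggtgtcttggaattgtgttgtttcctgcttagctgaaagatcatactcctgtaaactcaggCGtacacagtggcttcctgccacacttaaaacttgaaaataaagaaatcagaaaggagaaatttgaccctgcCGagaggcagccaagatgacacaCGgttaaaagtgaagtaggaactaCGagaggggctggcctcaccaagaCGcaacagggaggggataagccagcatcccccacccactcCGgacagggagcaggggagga
The windows of Krit1 and Ankib1, which start on opposite strands, share 156 bases. The 300 bases held 27 CG dinucleotides at Cdk6, 25 at Ankib1, 42 at Krit1, 20 at Prdx4 and 7 at Cd34. DNA methylation and gene copy number were not measured.

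Cdk6, the cyclin-dependent kinase that opens the G1 phase together with D-type cyclins, had 9.98 in A5 and 9.72 in H11, against 13.04 in D3, 12.61 in D3DP and 12.83 in MSN2. Its 2 further probe sets differed by -3.06 and -3.84. Ankib1, a ubiquitin ligase, had 9.21 and 9.13 in A5 and H11, against 13.34, 13.06 and 12.87 in D3, D3DP and MSN2. All 3 further probe sets of Ankib1 and all 4 of Krit1, a junction protein mutated in human cavernous malformations, were separated the same way. Akap9, a scaffold of the Golgi and centrosome, had 8.61 and 8.62 in A5 and H11, against 12.57, 12.30 and 12.65 in D3, D3DP and MSN2. Cyp51, a sterol synthesis enzyme, had 10.92 and 10.56 in A5 and H11, against 12.99, 13.63 and 13.35 in D3, D3DP and MSN2. At the end of the run, Fzd1, a Wnt receptor, had 8.76 and 9.11 in A5 and H11, against 11.73, 13.34 and 13.26 in D3, D3DP and MSN2. The genes of the block differ in function. Their shared direction and their gaps of 1 log2 unit or more follow from how a run was defined. Mterf1a has a near-identical copy in the mouse genome, and its probe set may read both.

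Read against the whole collection, A5 and H11 were on the common side of this block. In all 11 genes D3, D3DP, MSN2 and MSC11B lay above each of the other 22 lines. CarC and CarB, for example, had 8.71 and 7.78 for Cdk6. MSC11B carries the spindle flag at 0, so the high block was not shared by all spindle lines and was found in a line outside them. That line nevertheless had the epithelial genes Cdh1 and Epcam at background, at 3.25 and 4.32.

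**Figure D2:**
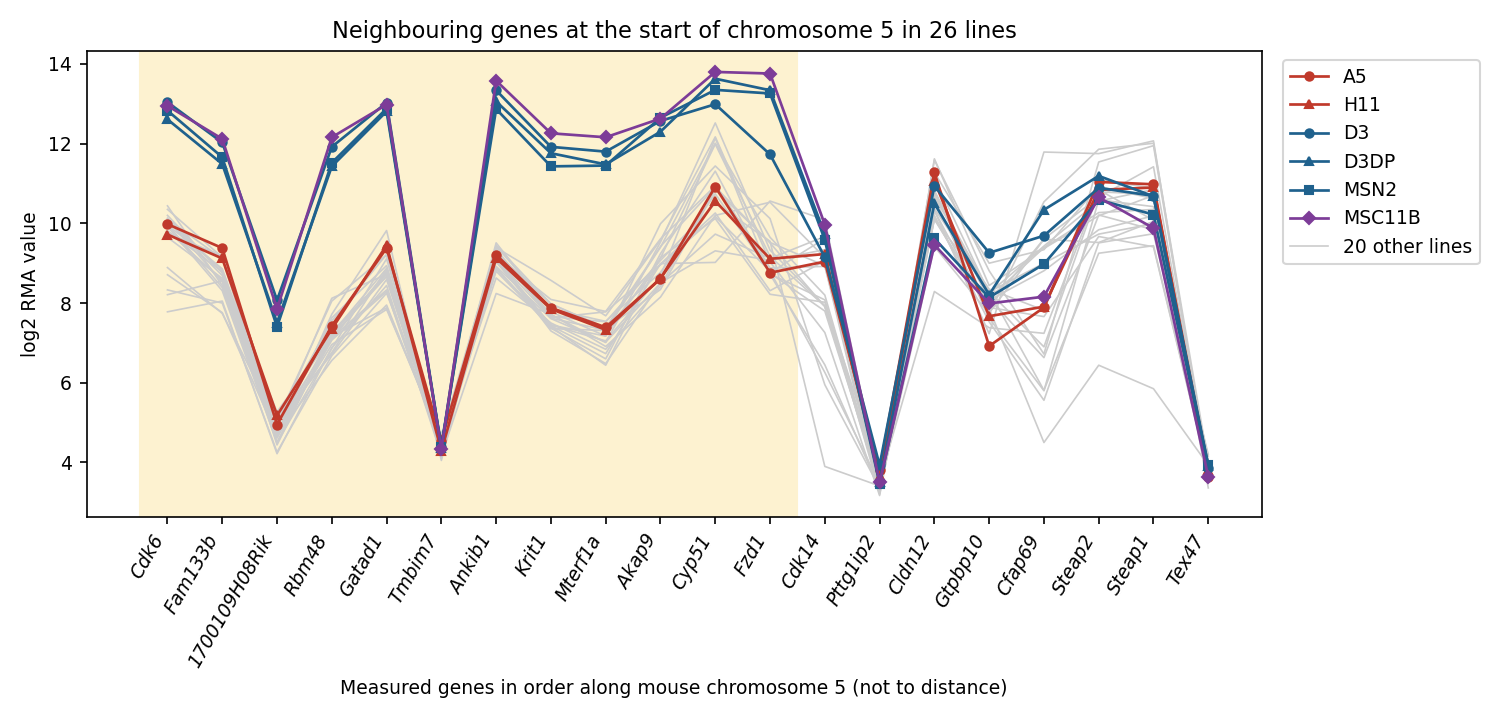
Log2 RMA values along the first measured genes of chromosome 5, in gene order, with 1 line per cell line and the separated block shaded. From Cdk6 to Fzd1 the points of D3, D3DP and MSN2 lie above those of A5 and H11 in all 11 tested genes, and at Cdk14 the lines meet again; Cfap69, further along, is also separated, with a difference of -1.77. MSC11B runs with D3, D3DP and MSN2 in the block, and grey lines are the remaining cell lines.

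Other runs were short. Besides the block there was 1 run of 5 genes, 2 runs of 3 and 21 runs of 2. The run of 5 was on the X chromosome and held Armcx4, Armcx1, Armcx3, Armcx2 and Zmat1, all lower in A5 and H11. The runs of 3 were Pkia, Zc2hc1a and Il7 on chromosome 3, higher in A5 and H11, and Hoxa10, Hoxa11 and the antisense gene Hoxa11os on chromosome 6, lower. Armcx3, a mitochondrial membrane protein of the Armcx cluster, had 3.27 and 3.80 in A5 and H11, against 8.95, 9.43 and 7.97 in D3, D3DP and MSN2, and it was at background in CarC and CarB too, at 3.52 and 3.42.

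Over whole chromosomes, the X chromosome stood out among lower genes. On it 29 of 333 tested genes were lower in A5 and H11 (8.71%, against 2.26% of all genes), 6 were higher, and the median difference was -0.28. Relative to each gene's median over the whole collection, X-linked genes had a median deviation of -0.14 in A5 and 0.07 in H11. The deviation was 0.08 in D3, 0.23 in D3DP and 0.36 in MSN2. Over the whole chromosome H11 thus lay close to D3, and a low level was not shared by A5 and H11. In 20 of the 29 genes both A5 and H11 were under their array medians, against 86 of the 230 other lower genes. Tceal8, a transcription elongation factor homolog, had 3.36 and 4.07 in A5 and H11, against 10.58, 10.75 and 10.45 in D3, D3DP and MSN2. Pcdh19, a protocadherin, had 5.37 and 5.28 in A5 and H11, against 9.25, 11.02 and 10.80 in D3, D3DP and MSN2. Il13ra1, a subunit of the interleukin 13 receptor, had 4.22 and 3.92 in A5 and H11, against 7.21, 9.12 and 7.45 in D3, D3DP and MSN2. The 20 X-linked transcripts under the medians were thus at background in A5 and H11, while Pcdh19 lay just above the medians there. Of the same 29 genes, 20 were under the array median in the carcinoma line E4, 9 in CarC, 8 in CarB and 6 in MSC11B. Of the X-linked partners of Y genes none was separated, and Ddx3x differed by 0.06, Kdm5c by 0.25, Kdm6a by 0.45 and Eif2s3x by 0.57. Where only genes above the median in all 5 lines were kept, 6 of 280 X-linked genes were lower (2.14%, against 1.23% of all), a filter that drops genes at background in A5 and H11. Without H11, 47 of 333 were lower (14.1%, against 3.23% of all), and without A5, 30 of 333 (9.01%, against 3.03% of all).

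On chromosome 3 the shift ran the other way and was spread over many genes. There 41 of 559 genes were higher in A5 and H11 (7.33%, against 1.87% of all genes), 448 of the 559 differences were positive, and the median difference was 0.35. Taken from each gene's median over all 26 lines, chromosome 3 genes had a median deviation of 0.43 in A5 and 0.34 in H11, against -0.04 in D3, 0.02 in D3DP and 0.02 in MSN2. Of its 41 genes, Fabp5, an epidermal fatty acid binding protein, had 13.66 and 13.65 in A5 and H11, against 11.27, 11.14 and 11.17 in D3, D3DP and MSN2. S100a4, a calcium-binding protein linked to motility, had 14.14 and 14.33 in A5 and H11, against 11.20, 12.94 and 12.38 in D3, D3DP and MSN2. Mcl1, a survival protein of the Bcl2 family, had 11.29 and 11.41 in A5 and H11, against 9.91, 9.69 and 9.33 in D3, D3DP and MSN2, but none of its 5 further probe sets was separated. Chromosome 13 had 15 of 419 genes higher (3.58%), with a median deviation of 0.34 in A5, 0.14 in H11, -0.01 in D3, 0.03 in D3DP and 0.12 in MSN2. Fabp5 and Mcl1 were chosen after their values were seen.

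**Figure D3:**
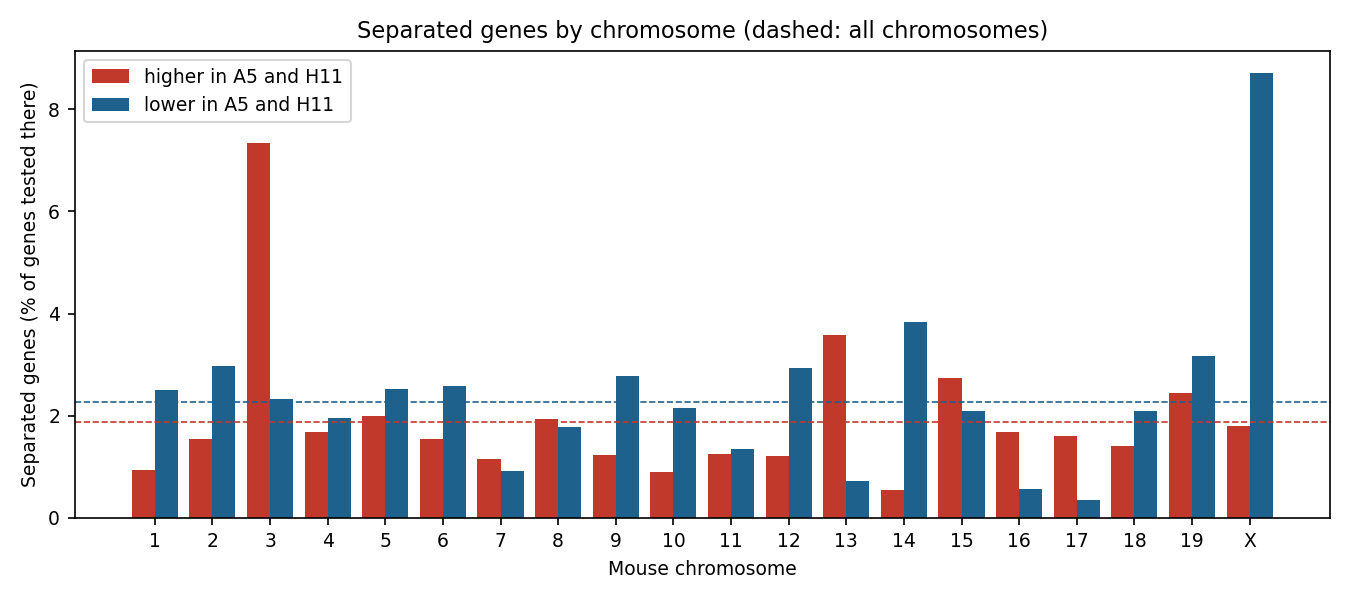
Share of the tested genes of each chromosome, in percent, that were separated and higher (left bar) or lower (right bar) in A5 and H11, with dashed lines at the shares over all genes, 1.87% and 2.26%. The bar of higher genes on chromosome 3 reaches 7.33% and that of lower genes on the X chromosome 8.71%.

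The Hox genes, which record position along the body axis, had no separated member that was higher in A5 and H11 and 8 of 23 tested members that were lower, where 1.87% of all genes were higher and 2.26% lower. Their median difference was -1.24, against -0.02 over all genes. In 18 of the 23 both A5 and H11 were below D3, D3DP and MSN2 by any margin (25.0% of all genes), and in 2, Hoxa7 and Hoxb9, they were above (21.1% of all genes). Some of these margins were small, such as -0.07 for Hoxc9 and Hoxc13. The 8 genes came from all 4 clusters: Hoxa2, Hoxa10, Hoxa11, Hoxb2, Hoxb3, Hoxb6, Hoxc4 and Hoxd8. Hoxa11, a limb and uterus patterning gene, had 3.48 and 3.43 in A5 and H11, against 7.76, 6.23 and 8.04 in D3, D3DP and MSN2, and it was at background in CarC and CarB, at 3.60 and 3.57. Hoxb2 had 5.27 and 5.40 in A5 and H11, against 8.54, 8.26 and 7.79 in D3, D3DP and MSN2, and CarC and CarB, at 7.65 and 8.45, lay near D3, D3DP and MSN2. For Hoxb3 the further probe set differed by -0.90 and was not separated. Hoxa10 had 6.16 and 6.42 in A5 and H11, against 8.92, 8.32 and 8.82 in D3, D3DP and MSN2. Under the filter of all 5 lines, 4 of 12 Hox genes were lower and none was higher.

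**Figure D4:**
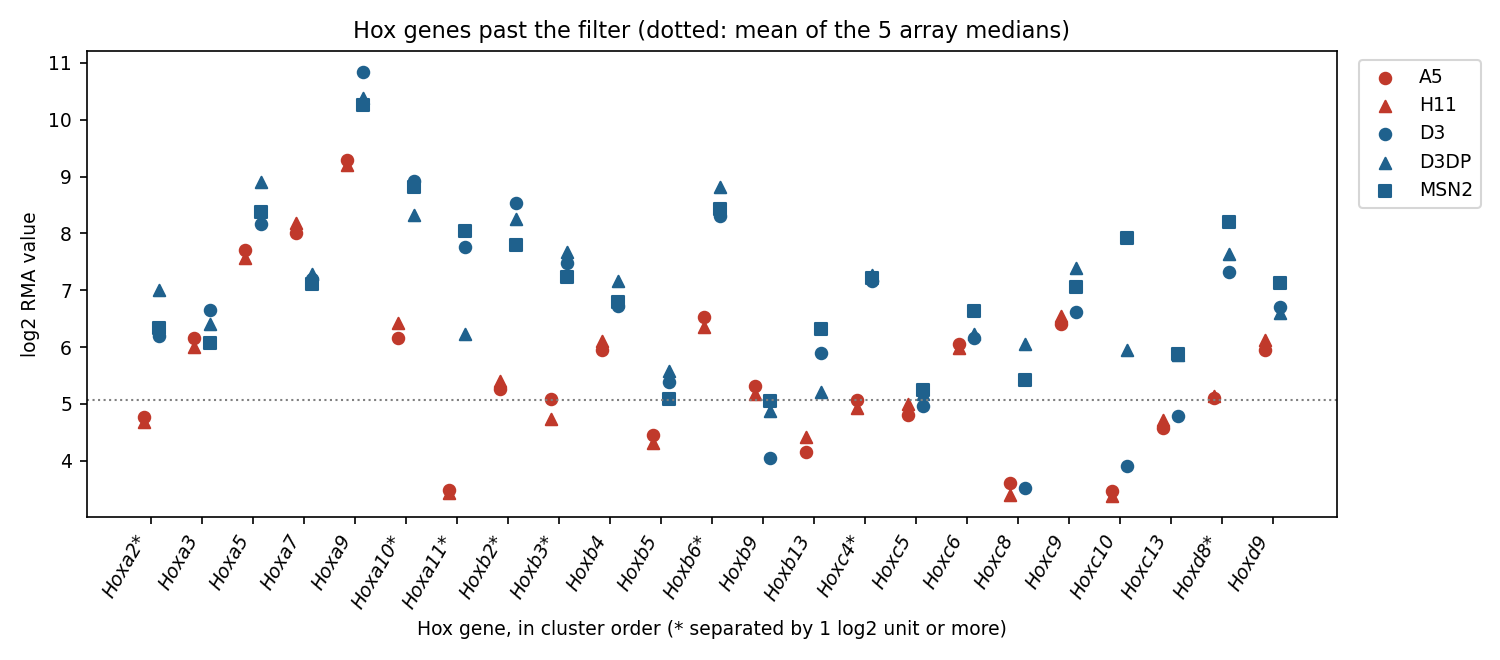
Log2 RMA values of the tested Hox genes in cluster order, with 1 point per line for A5 and H11 and for D3, D3DP and MSN2, asterisks at separated genes and a dotted line at the array median. A5 and H11 lie below D3, D3DP and MSN2 in 18 of the 23 genes and above them in 2.

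Of 36 other tested developmental transcription factors 1 was higher in A5 and H11 and 6 were lower, beside 1.87% and 2.26% of all genes. Their median difference was -0.02. The higher one was Sox2. Osr1, a factor of limb and kidney mesenchyme, had 4.27 and 4.72 in A5 and H11, against 8.80, 9.29 and 9.80 in D3, D3DP and MSN2. Gata3, a factor of epidermis and hair follicle, differed by -2.78, Ebf1 by -2.29, Pax3 by -2.50, Eya1 by -2.97 and Bnc2 by -2.21. Plagl1, from the list of imprinted genes, Maf, from that of AP-1 factors, and Id4, from that of BMP genes, also encode nuclear factors. Plagl1, a zinc finger factor of embryonic growth, had 3.95 and 3.72 in A5 and H11, against 9.61, 8.21 and 8.48 in D3, D3DP and MSN2. Maf, which drives differentiation in lens and leukocytes, had 5.79 and 5.96 in A5 and H11, against 8.44, 9.0 and 9.77 in D3, D3DP and MSN2, with 2 of 4 further probe sets separated. The levels of both were separated by wide gaps, of -4.26 and -2.48. Id4, an inhibitor of basic helix-loop-helix factors, had 9.96 and 11.59 in A5 and H11, against 6.94, 7.04 and 8.80 in D3, D3DP and MSN2. Neither of its 2 further probe sets was separated, although both differed by over 2 log2 units, at 2.55 and 2.85.

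The spindle label was checked against epithelial and mesenchymal markers. Vim, the intermediate filament of mesenchymal cells, had 13.86 in A5 and 14.15 in H11, against 14.20 in D3, 14.21 in D3DP and 14.12 in MSN2. Cdh1, which encodes E-cadherin, was at background in all 5 lines, with 3.23 and 3.02 in A5 and H11, against 3.76, 3.78 and 3.63 in D3, D3DP and MSN2. Epcam and Krt14 were at background as well, and only 14 of 34 measured epithelial genes passed the filter. Those that did included the desmosome genes Dsp, Pkp1 and Jup, and Dsp had 6.51 and 6.77 in A5 and H11, against 7.10, 8.0 and 9.80 in D3, D3DP and MSN2. Krt8 was the 1 separated gene of these 14, beside 4.13% of all genes. Krt8 had 5.59 and 5.73 in A5 and H11, against 11.39, 9.15 and 11.46 in D3, D3DP and MSN2, and both further probe sets were separated too. Its filament partner Krt18 was high on both sides, with 11.37 and 11.27 in A5 and H11, against 11.94, 9.85 and 12.01 in D3, D3DP and MSN2. CarC, with 10.48 for Krt8 and 6.0 for Krt18, had the opposite combination to A5 and H11. Fn1, which encodes fibronectin, had 10.32 to 12.73 in the 5 lines, beside a median of 12.65 in the other 21. Thy1, Cdh11 and Fap, markers of fibroblasts, did not pass the filter, although Cdh11 was above the array median in MSN2, at 5.67.

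Of 14 transcription factors of the epithelial-mesenchymal transition, 1 was separated, beside 4.13% of all genes, and their median difference was -0.11. Prrx2, a paired-like homeobox factor of mesenchyme, had 8.80 and 9.92 in A5 and H11, against 4.65, 6.87 and 7.48 in D3, D3DP and MSN2. Its paralog Prrx1 was not separated, since D3, at 6.48, lay below A5 and H11, at 7.11 and 7.89, while D3DP and MSN2 had 10.13 and 10.18. Snai2, Zeb1, Zeb2, Twist1 and Twist2 overlapped between the sides, with differences of -0.32, -0.26, -0.20, -0.01 and 0.44.

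Among mesenchymal and contractile genes 1 of 18 was higher and 3 were lower in A5 and H11, beside 1.87% and 2.26% of all genes. Their median difference was -0.39. S100a4, given above, was the higher one. Acta2, the smooth muscle actin of myofibroblasts, had 7.47 and 6.97 in A5 and H11, against 10.35, 13.68 and 11.79 in D3, D3DP and MSN2. Pdpn, the membrane mucin podoplanin, had 4.57 and 4.92 in A5 and H11, against 9.22, 9.66 and 8.55 in D3, D3DP and MSN2. Pdgfra, a platelet-derived growth factor receptor, had 5.85 and 5.95 in A5 and H11, against 7.29, 8.28 and 9.57 in D3, D3DP and MSN2, and its further probe set was not separated. The contractile genes Tagln, Myl9 and Actg2 were lower in A5 and H11 as well, with differences of -2.23, -1.28 and -1.40. Their gaps were only -0.67, -0.36 and -0.65, and Myl9 was under the array median in D3 too, at 4.27. The contractile genes Cald1, Cnn2 and Lmod1 had no gap between the sides, with differences of -0.32, -0.38 and -0.19. Pdpn also set CarC, at 10.98, apart from CarB, at 4.40. In these bulk cultures, fewer cells with a transcript and less of it per cell cannot be told apart.

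Adhesion genes of the cadherin family had 2 members higher and 4 lower of 15 tested, beside 1.87% and 2.26% of all genes. Pcdh18 had 9.85 and 9.66 in A5 and H11, against 5.95, 7.42 and 5.86 in D3, D3DP and MSN2, and A5 and H11 lay above every other line of the collection. The other higher member was Fat4, a planar polarity cadherin, with a difference of 2.43, although its further probe set was not separated. Cdh26, which is not in the list and was chosen after its values were seen, had 8.51 and 9.10 in A5 and H11, against 4.80, 4.89 and 4.32 in D3, D3DP and MSN2. The lower ones were Pcdh19, Pcdhb17, Pcdh17 and Cdh6, with differences of -5.04, -3.20, -2.41 and -1.80. Pcdhb17 belongs to a cluster of similar genes, and its probe set may read neighbours. Cdh2, the N-cadherin gene of mesenchymal cells, was higher in A5 and H11 by 0.92 with a gap of 0.69, which is short of the threshold.

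Matrix genes were separated in both directions. Among 18 collagen chains 1 was higher in A5 and H11 and 3 were lower, beside 1.87% and 2.26% of all genes, and their median difference was 0.06. Col1a2, a chain of type I collagen, had 9.79 and 8.10 in A5 and H11, against 5.45, 6.76 and 6.36 in D3, D3DP and MSN2, far below CarC and CarB at 13.80 and 13.25. Col18a1, a basement membrane collagen, had 7.07 and 6.07 in A5 and H11, against 10.16, 9.88 and 9.45 in D3, D3DP and MSN2. The type VI chains Col6a2 and Col6a3 differed by -2.71 and -2.47. Serpinh1, the collagen chaperone Hsp47, had 5.47 and 5.81 in A5 and H11, against 10.36, 11.01 and 10.31 in D3, D3DP and MSN2, and its further probe set differed by -6.94. Of 15 collagen processing genes, Serpinh1, Loxl3 and Bmp1 were lower and Loxl4 was higher. A type I collagen chain and the chaperone for its folding thus lay on opposite sides in these lines. E4 shared the low Serpinh1, at 6.01, while CarC and CarB had 12.38 and 11.64.

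The fibulin gene Fbln1 had 8.39 and 8.88 in A5 and H11, against 4.26, 5.47 and 6.79 in D3, D3DP and MSN2, although 1 of its 2 further probe sets differed by -0.14. Fbln2 had 4.72 and 4.73 in A5 and H11, against 9.17, 9.52 and 9.29 in D3, D3DP and MSN2. Of 22 matricellular, fibulin and proteoglycan genes 2 were higher and 3 lower, beside 1.87% and 2.26% of all genes. The others were Thbs1, the TGF-beta activator thrombospondin 1, with a difference of 1.95, and the lower genes Vcan, the proteoglycan versican, and Thbs3, with -2.57 and -1.87. None of 17 matrix metalloproteinases, Adamts proteases and Timps was separated. Among 13 genes of plasminogen activation and serpins, Plau, the urokinase gene, had 5.01 and 5.39 in A5 and H11, against 8.16, 8.69 and 6.91 in D3, D3DP and MSN2. Serpinf1 and Serpinb2 were lower too, by differences of -3.21 and -1.65, and Serpinb9b was higher by 2.19.

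Secreted signals and their receptors had few separated members in each family. In the BMP, activin and follistatin list 3 of 22, Bmp6, Fst and Id4, were higher and 1, the protease Bmp1, was lower. Over all genes 1.87% were higher and 2.26% lower. Bmp6 had 6.87 and 7.49 in A5 and H11, against 4.21, 4.03 and 4.04 in D3, D3DP and MSN2, where it was at background. Fst, the activin antagonist follistatin, had 7.12 and 7.86 in A5 and H11, against 4.64, 4.46 and 4.90 in D3, D3DP and MSN2. A ligand and an antagonist of the superfamily were thus present in A5 and H11 only among these 5 lines. In the other 21 lines Fst had a lowest value of 6.22 and a median of 10.82, and Bmp6 had a median of 6.79. For Fst, D3, D3DP and MSN2 therefore lay below every other line of the collection. No TGF-beta ligand, receptor or Smad was separated out of 21.

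In the Wnt pathway 2 of 36 genes were higher and 2 lower, beside 1.87% and 2.26% of all genes. Wnt5a, a ligand that acts mainly without beta-catenin, had 3.79 and 3.83 in A5 and H11, against 7.19, 7.99 and 7.17 in D3, D3DP and MSN2, with both further probe sets separated. Wnt5a was at background in E4 and in the keratinocyte line NK as well, at 3.86 and 3.83. Fzd1, from the chromosome 5 block, was the other lower member. Wnt10a, a ligand of hair follicle and tooth, had 8.72 and 8.23 in A5 and H11, against 6.36, 5.95 and 6.68 in D3, D3DP and MSN2, and Wnt7a differed by 1.75. Of 12 Notch pathway genes, Jag2, a ligand, was higher by 1.52 and none was lower. In the axon guidance list the secreted semaphorins Sema3a and Sema3c were higher, by 2.17 and 1.87. The membrane-bound Sema6d and Sema7a, the receptor Plxna2 and the guidance cue Ntn1 were lower, with differences of -3.44, -2.13, -2.25 and -1.36. The further probe set of Sema3a was not separated, at a difference of 2.42.

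Of 24 chemokines, interleukins and their receptors 2 were higher and 3 lower, beside 1.87% and 2.26% of all genes. Cxcl12, a chemokine of stromal fibroblasts, had 4.24 and 4.27 in A5 and H11, against 5.60, 9.38 and 11.52 in D3, D3DP and MSN2, so that D3 was closer to A5 and H11 than to MSN2. Il33, an alarmin of epithelial and stromal cells, had 3.77 and 3.89 in A5 and H11, against 7.12, 9.01 and 7.67 in D3, D3DP and MSN2. The receptor subunits for interleukin 13 split, with Il13ra1 lower by a difference of -3.86 and the decoy Il13ra2 higher by 1.65. Cx3cl1, a membrane-anchored chemokine, had 8.74 and 8.84 in A5 and H11, against 5.71, 6.71 and 6.55 in D3, D3DP and MSN2. Of 25 interferon-stimulated genes Ifit2 was higher, by 1.95, and Usp18, which restrains interferon signalling, was lower, by a difference of -3.36. No MHC class I or antigen processing gene was separated out of 11.

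Among growth factor genes, Gas6, a ligand of the Axl receptors, had 7.04 and 6.90 in A5 and H11, against 4.66, 4.32 and 4.91 in D3, D3DP and MSN2. Of the 34 receptor kinases and ligands it was the 1 higher member, and Ptn, Pdgfra and Vegfc were lower. Over all genes 1.87% were higher and 2.26% lower, which applies to each list of this paragraph. Vegfc had 2 further probe sets that were not separated, and 1 of them had the opposite sign, at 0.96. Igfbp3, a binder of insulin-like growth factors, had 3.78 and 3.59 in A5 and H11, against 6.15, 4.95 and 6.07 in D3, D3DP and MSN2. The Igfbp3 level of D3DP was under its array median, and the other 21 lines had a median of 11.35, so Igfbp3 was low on both sides. In the Ras and ERK list of 23 genes, the feedback inhibitor Spry1 was the 1 separated member, higher by 1.89. In the list of 11 EGF ligands and ErbB receptors it was Errfi1, an inhibitor of the EGF receptor, with a difference of -1.36.

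Genes of the oxidative and electrophile response had 5 of 32 tested members higher and 1 lower, beside 1.87% and 2.26% of all genes, and the list's median difference was 0.02. Nqo1, a quinone reductase, had 9.01 and 9.38 in A5 and H11, against 3.80, 4.79 and 3.91 in D3, D3DP and MSN2. CarC and CarB, at 10.36 and 10.81, were on the side of A5 and H11, and MSC11B had 8.14. Aldh3a1, an aldehyde dehydrogenase of cornea and stomach, had 8.74 and 10.34 in A5 and H11, against 4.36, 5.10 and 6.62 in D3, D3DP and MSN2. Ephx1, the microsomal epoxide hydrolase, differed by 2.73, Akr1c18, a steroid-reducing enzyme, by 2.72, and Gsto1, an omega-class glutathione transferase, by 1.54. The lower member was Aldh1a1. Nfe2l2, which encodes the regulator NRF2, differed by -0.72 and was not separated. Ahr, the receptor for aromatic hydrocarbons that controls Nqo1 and Aldh3a1 in other settings, had 8.74 and 9.56 in A5 and H11, against 5.25, 7.74 and 5.71 in D3, D3DP and MSN2, a gap of 1.00, and its further probe set was not separated. Tiparp and Cyp1b1, which are also known targets of this receptor, were not separated. Tiparp differed by 0.32, and Cyp1b1 was low in D3 alone among the 5 lines, at 4.34. In the other 21 lines Ahr had 7.30 to 10.88, so D3 and MSN2 lay below all of these. Ahr, Tiparp, Cyp1b1 and Nfe2l2 were chosen after values had been seen, and a role of Ahr or NRF2 was not tested.

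Retinoid and aldehyde genes had 3 members higher and 2 lower of 26, beside 1.87% and 2.26% of all genes. Crabp1 and Crabp2, both cellular retinoic acid binding proteins, lay on opposite sides. Crabp1 had 4.27 and 3.91 in A5 and H11, against 6.52, 10.07 and 10.79 in D3, D3DP and MSN2. Crabp2 had 9.88 and 9.79 in A5 and H11, against 5.02, 7.81 and 8.65 in D3, D3DP and MSN2. Aldehyde dehydrogenases split in the same way, with Aldh3a1 and the mitochondrial Aldh2 higher, by 4.18 and 1.80, and Aldh1a1 lower by a difference of -7.20. Among transporters, the lactate carrier Slc16a1 was higher by 1.79, but its further probe set differed by -0.17, and the zinc carrier Slc39a8 was lower by a difference of -3.80.

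The cell cycle list had no higher and 2 lower members among 22 tested, Cdk6 and Ccnd2. Over all genes 1.87% were higher and 2.26% lower. Ccnd2, a D-type cyclin that pairs with Cdk6, had 6.20 and 7.08 in A5 and H11, against 9.17, 10.55 and 10.13 in D3, D3DP and MSN2, and 5 of its 6 further probe sets were separated. Both members of a cyclin and kinase pair were thus lower in A5 and H11, while Ccnd1 and Cdk4 differed by 0.04 and 0.19. For Cdk6, however, A5 and H11 lay near 9.94, the median of the 22 lines without the high chromosome 5 block. D3, D3DP and MSN2 were the unusual side there. For Ccnd2, A5 and H11 lay below every other line, and the lowest of the other 21 had 7.40. The inhibitor genes Cdkn2a and Cdkn2b were well above background on both sides. Cdkn2a had 8.69 and 8.39 in A5 and H11, against 8.60, 9.42 and 9.0 in D3, D3DP and MSN2, whereas CarC and CarB were at background with 4.37 and 3.98. Of 31 mitotic and replication genes 1 was separated, the cyclin Ccna2, with 12.02 and 11.80 in A5 and H11, against 10.78, 10.58 and 10.79 in D3, D3DP and MSN2. Of 22 genes of the Trp53 list, Plk2 was the 1 separated gene, higher by 1.69.

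Markers of other cell types gave little. No gene was separated in the melanocyte list (4 tested), the Schwann and neural list (7), the muscle list (9), the endothelial list (4) or the macrophage and leukocyte list (7). Over all genes 4.13% were separated, so lists this short may hold none, and these counts do not bear on cell type. In the adipocyte, bone and cartilage list of 9, Lpl was the 1 separated gene. Over all 43 lists, 39 of 724 distinct tested genes were higher and 60 were lower, beside 1.87% and 2.26% of all genes.

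Within the sides, A5 and H11 differed by 1 log2 unit or more in 180 genes, and H11 was the higher line in 122 of them (1.06% of the genes) and A5 in 58 (0.506%). The LIM protein gene Fhl1 had 3.97 in A5 and 9.07 in H11. Mgp, an inhibitor of calcification, had 4.57 in A5 and 8.96 in H11, and the matrix genes Efemp1 and Thbs2 were higher in H11 as well, at 9.36 and 10.18, against 5.86 and 7.16 in A5. For Fhl1, A5 was below D3 and H11 lay within the range of D3, D3DP and MSN2. Pmepa1, an inhibitor of TGF-beta signalling, was higher in A5, at 10.38, than in H11, at 8.04, and Nt5e, the ectonucleotidase CD73, had 8.66 in A5 and 6.50 in H11.

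D3 stood furthest from its own side. It lay 1 log2 unit or more below both D3DP and MSN2 in 291 genes (2.54%) and above both in 142 (1.24%). Among the genes low in D3, the matrix gene Efemp1 had 3.71 in D3, 9.87 in D3DP and 11.43 in MSN2. Cd81, a tetraspanin, was low in D3 alone among the 5 lines, at 4.42, with 10.41 in A5, 11.10 in H11, 9.98 in D3DP and 10.40 in MSN2. Col3a1, a fibrillar collagen, had 5.51 in D3, 11.10 in D3DP and 8.91 in MSN2. D3 was higher for the homeobox gene Rhox5, with 8.49, against 4.26 in D3DP and 4.10 in MSN2, and for Jag1, a Notch ligand, with 9.61, against 7.39 and 6.07. D3DP lay above both others in 141 genes (1.23%) and below both in 49 (0.427%). MSN2 did so in 117 (1.02%) and 48 (0.418%). Mycn, a Myc family oncogene, had a level of 13 in D3DP, while the other 4 lines had 6.57 to 6.69 and none of the remaining 21 lines exceeded 6.71.

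The other 21 lines were placed on the 474 separated genes by counting on which side of the midpoint of the gap each lay. CarB was on the side of A5 and H11 in 217 genes (45.8%) and CarC in 206 (43.5%). Both were on the side of A5 and H11 in 167 genes, both on that of D3, D3DP and MSN2 in 218, and they were apart in 89. The remaining spindle lines thus joined neither side as a whole. At the extremes stood 2 carcinoma lines with the spindle flag at 0, E4 and MSC11B. E4 was on the side of A5 and H11 in 366 genes (77.2%), and MSC11B on that of D3, D3DP and MSN2 in 409 (86.3%). The epithelial genes Cdh1 and Epcam were high in E4, at 10.58 and 11.78, but at background in MSC11B, at 3.25 and 4.32. Over all 11470 genes the difference between MSC11B and MSN2 had an SD of 0.53 and that between MSC11B and D3DP 0.57, both below that of D3 and MSN2. The SD for A5 and E4 was 0.65. In 29 of the higher and 26 of the lower genes A5 and H11 lay beyond every other line of the collection, but in 11 of the 26 another line was under its array median too, where the order has no meaning. D3, D3DP and MSN2 did so in 19 genes, and together with MSC11B in 37, the 11 genes of the chromosome 5 block among them.

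**Figure D5:**
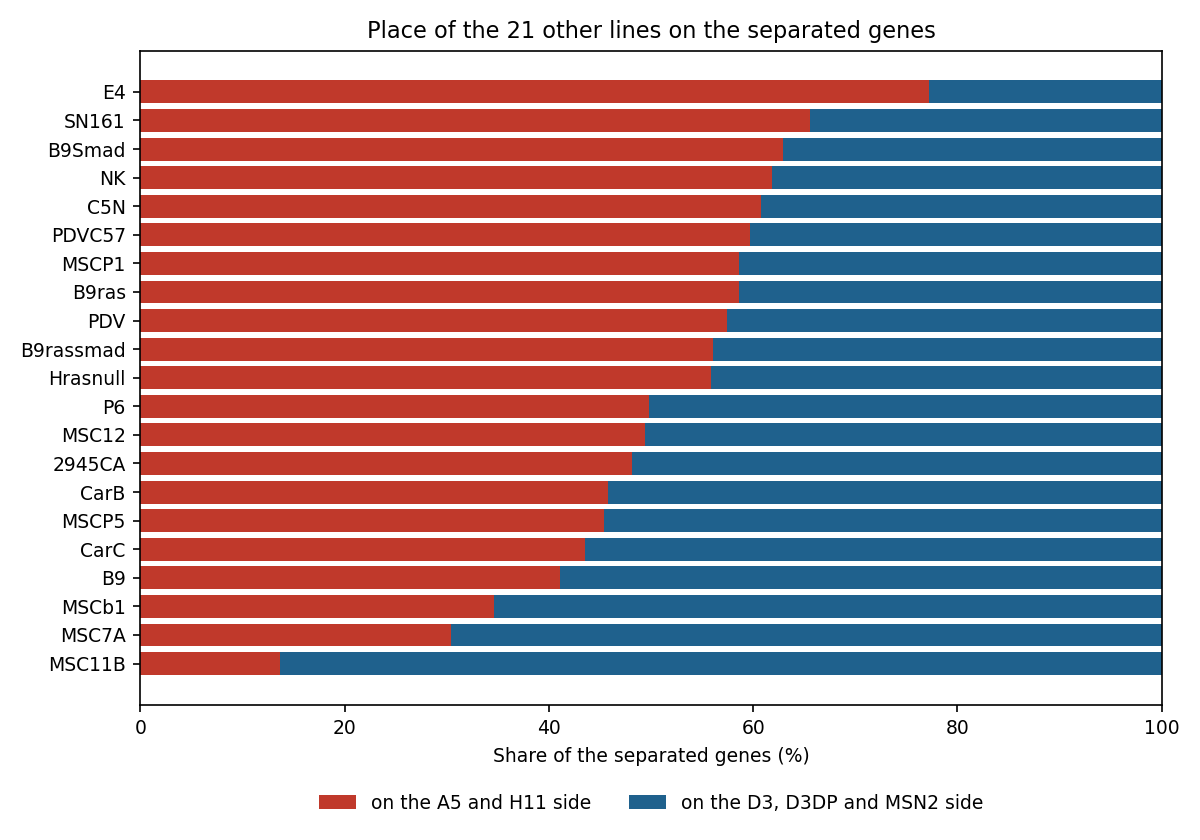
Share of the 474 separated genes, in percent, in which each of the other 21 lines lay on the side of A5 and H11 from the midpoint of the gap (left bar), with the rest on the side of D3, D3DP and MSN2 (right bar). The share is highest in E4, at 77.2%, and lowest in MSC11B, at 13.7%, and CarB and CarC lie at 45.8% and 43.5%.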

How the data were processed

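RNA of 26 mouse skin cell lines was hybridised to Affymetrix M430 2.0 arrays, 1 per line. The authors deposited log2 values made with RMA, per the submitters' processing notes, for 45037 probe sets. The sources used here do not give the version of RMA or the software. Quantile normalisation gives all arrays nearly the same distribution, so a change in total RNA cannot be seen, and only the number of arrays limits the precision.

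Probe sets were named through the platform annotation: 34945 had 1 gene symbol, 932 several and 9160 none, and 34741 of the single-gene probe sets matched a current RefSeq gene (GRCm38.p6), used for names, chromosomes and gene order. Each of 18193 genes was read from its single-gene probe set with the highest mean over 26 arrays. Genes above their array's median in 2 or more of the 5 lines (11470) were kept. No between-line test was made. Python 3.11.15, pandas 2.3.3 and numpy 2.4.6 were used.

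The lines, gene lists and thresholds were chosen with earlier results of these data known. The genes open to naming were the 15 separated genes with the largest difference each way, up to 6 separated members of each of 43 lists (1169 entries), and, separated or not, the measured members of the lists of EMT factors, sex-linked, cell cycle, mesenchymal, epithelial and Hox genes. Genes of the chromosome 5 block, of runs and chromosomes, and those that differ within a side were named after their values were seen. Alternatives changed the probe set, filter, scaling, separation and lines.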

Additional observations from a re-analysis of the deposited data

How the results depend on the processing

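No separated gene among those open to naming changed the sign of its difference, which leaving out a line or averaging close lines could not change. For genes that were not separated a change of sign was not counted, so their direction was not assessed. The counts of separated genes depended on the filter and on the separation asked for. Of the 474 genes, 248 were left with genes above the median in all 5 lines, 122 higher and 126 lower in A5 and H11, a filter that drops genes at background on one side, and list members fell to 23 higher and 24 lower. A separation of 0.5 log2 units gave 583 higher and 777 lower genes, with 68 and 105 list members, and one of 2 log2 units 53 and 88 genes, with 11 and 32. A mean difference of 1 log2 unit with overlap allowed gave 512 and 631 genes, with 82 and 131 list members. With A5 and H11 averaged and D3DP and MSN2 averaged there were 351 higher and 406 lower genes, and 60 higher list members. Leaving out each line in turn gave 267 to 302 higher and 300 to 411 lower genes, with 46 to 52 and 64 to 92 list members; leaving out a line can only keep or widen a gap, so no gene could be lost. Without D3 the lower genes numbered 411 and the lower list members 92. Genes differing between A5 and H11 numbered 118 with the mean of all probe sets and 94 above the median in all 5 lines. Under that filter D3DP and MSN2 differed in 255 genes, and the closest pair across the sides in 798. The mean of all probe sets kept 349 of the 474 genes, and quantile normalisation of the 5 arrays alone kept 468. The chromosome 5 block kept all 11 genes under every alternative run for it except the filter of all 5 lines, which kept 10. Of the values of single genes under alternatives, 59 of 1864 moved by the spread between lines or more. Leaving out a line or averaging close lines always shifts a mean by less than that spread, so those values could not move. Only the mean of all probe sets and the quantile normalisation of the 5 arrays alone could move a value. No paired analysis was possible because the labels give no replicate numbers. With 1 array per line, the spread between cultures of a line is unknown.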
